A study of Mus musculus with 15 samples.

Results

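The proteasome genes are the 47 genes, of 10020 in the deposited exon table, whose symbols begin with Psma, Psmb, Psmc, Psmd, Psme, Psmf or Psmg. Of these, 5 belong to the immunoproteasome (Psmb8, Psmb9, Psmb10, Psme1 and Psme2) and are set beside the 42 others. Psmc3ip was taken in by its prefix alone, since it encodes a recombination factor and not a proteasome protein. RNA was measured in mouse bone marrow-derived macrophages of the strain C57BL/6, grown with M-CSF from marrow of mice of mixed sex, with no genetic change given in the labels. Cells were left unstimulated (0 min) or stimulated for 15, 30, 60 or 120 min with lipid A at 100 ng/ml, the lipid anchor of endotoxin and a ligand of the receptor TLR4. At each of the 5 times, RNA of the chromatin pellet, of the nucleoplasm and of the cytoplasm was sequenced after removal of ribosomal RNA, which gave 15 libraries with 1 library for each fraction and time. Whether marrow of several mice was pooled, and whether the 3 fractions of a time share plates, is not in the labels.

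The proteasome degrades proteins tagged with ubiquitin. Its barrel, the 20S core, is built of alpha rings that gate the entrance and beta rings that carry the cutting sites, and the 19S cap recognises and unfolds substrates. In cells that receive interferon, Psmb8, Psmb9 and Psmb10 take the places of the constitutive cutting subunits Psmb5, Psmb6 and Psmb7 in newly assembled cores, and Psme1 and Psme2 form an alternative cap. Immunoproteasomes are known for making peptides that are displayed on MHC class I molecules, a task macrophages share with other antigen-presenting cells.

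The libraries held 38771000 to 52330000 reads in chromatin RNA, 24452000 to 31424000 reads in nucleoplasmic RNA and 15582000 to 19855000 reads in cytoplasmic RNA, as recovered from the steps in the deposited values. The summed level of 4 nuclear RNAs (Malat1, Neat1, Kcnq1ot1 and Airn) was 1444 to 2415 RPKM (reads scaled to gene length and library depth) in the chromatin libraries. It was 314 to 774 RPKM in the nucleoplasmic and 17.1 to 44.996 RPKM in the cytoplasmic libraries. The summed level of 4 cytoplasmic mRNAs (Actb, Gapdh, Eef1a1 and Tpt1) was 168 to 365 RPKM in the chromatin libraries. It was 707 to 992 RPKM in the nucleoplasmic and 1154 to 1610 RPKM in the cytoplasmic libraries. Macrophage markers were present, with 9 of 11 names listed and summed levels of 1214 RPKM or more in every library. None of 8 dendritic cell and none of 5 erythroid names was in the table, 3 of 9 T cell names (Cd4, Lck and Cd28) summed to at most 119 RPKM, 8 of 10 neutrophil names to at most 69.3 RPKM, 2 of 6 B cell names to at most 12.6 RPKM and 1 of 6 stromal names to at most 1.80 RPKM. Their part in the results below was not tested. In bulk RNA, a change in the share of a cell type and a change in RNA per cell cannot be told apart. The RPKM summed over all genes was 171313 in the 60 min cytoplasmic library, against 109581 to 130499 in the other 4 cytoplasmic libraries. It was 86442 in the 120 min chromatin library, against 62778 to 68738 in the other 4 chromatin libraries. In the nucleoplasmic libraries it was 194663 to 217978.

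The RefSeq promoters (build GRCm38.p6) of the immunoproteasome genes are shown here because the deposited class table gives Psmb8, Psmb10 and Psme2 the promoter type LCG, a label not spelled out in the sources used here. Each line is the 150 bases before the annotated start, 5′ to 3′ on the gene's strand, with CpG dinucleotides in capitals. Psmb5, the constitutive counterpart of Psmb8, follows them for comparison.
Psmb8, chr17:34198045-34198194, plus strand: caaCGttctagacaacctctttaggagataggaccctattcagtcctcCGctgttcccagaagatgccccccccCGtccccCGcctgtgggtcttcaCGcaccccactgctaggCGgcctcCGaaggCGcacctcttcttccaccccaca
Psmb9, chr17:34187331-34187480, minus strand: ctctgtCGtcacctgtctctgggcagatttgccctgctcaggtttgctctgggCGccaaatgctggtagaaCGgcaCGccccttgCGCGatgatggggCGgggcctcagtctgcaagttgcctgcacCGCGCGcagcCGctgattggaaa
Psmb10, chr8:105938393-105938542, minus strand: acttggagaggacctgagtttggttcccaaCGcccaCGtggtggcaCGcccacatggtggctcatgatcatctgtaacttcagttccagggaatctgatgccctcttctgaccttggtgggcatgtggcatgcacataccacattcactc
Psme1, chr14:55578344-55578493, plus strand: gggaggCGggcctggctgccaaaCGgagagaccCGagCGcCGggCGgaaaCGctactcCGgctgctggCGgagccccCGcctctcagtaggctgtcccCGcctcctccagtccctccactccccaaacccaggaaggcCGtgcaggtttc
Psme2, chr14:55591102-55591251, minus strand: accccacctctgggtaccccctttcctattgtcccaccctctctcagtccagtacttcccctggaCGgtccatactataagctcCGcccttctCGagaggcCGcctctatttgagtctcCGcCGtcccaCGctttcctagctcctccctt
Psmb5, chr14:54617996-54618145, minus strand: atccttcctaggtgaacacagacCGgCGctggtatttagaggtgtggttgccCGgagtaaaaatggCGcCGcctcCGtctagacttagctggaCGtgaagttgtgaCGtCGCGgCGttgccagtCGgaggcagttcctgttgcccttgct
Psmb10 holds 3 CpG in this stretch, Psme2 holds 7, Psmb8 holds 8, Psmb9 holds 11 and Psme1 and Psmb5 hold 12 each. Over the 250 bases before the start, the observed to expected CpG ratio had a median of 0.547 (0.220 to 0.627) in 6 promoters of the 5 immunoproteasome genes, of 0.784 (0.175 to 1.15) in 37 promoters of 35 other proteasome genes and of 0.373 in all 32851 promoters. Promoters were found for 40 of the 47 genes. Motifs were searched over the same 250 bases on both strands, with overlapping matches allowed. The gamma-activated site TTCNNNGAA, an element of interferon-responsive promoters, occurred as TTCCCAGAA at 97 to 89 bases before the start of Psmb8, and in 1 of 6 immunoproteasome promoters, 1 of 37 others and 7.02% of all promoters. The core of the interferon-stimulated response element, GAAANNGAA, occurred in 0 of 6, 3 of 37 and 7.13% of all, and the NF-kappaB consensus in 0 of 6, 6 of 37 and 7.25% of all. The antioxidant response element TGACNNNGC, which is bound by NRF1 and NRF2, occurred in 0 of 6, in 5 of 37 (as TGACGTCGC at 47 to 39 bases before the start of Psmb5) and in 10.2% of all. A match of letters is not a bound site, and no match says only that these letters are not in this window.

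At rest the cytoplasmic level per length ran over a wide range among the 47 genes. It was highest for Psmd8, a lid subunit of the 19S cap, at 71.8 RPKM, then for the ATPase Psmc3 at 47.8, the beta subunits Psmb4 at 41.9 and Psmb2 at 39.4, and Psmb8 at 33.5 RPKM. Psma5 at 0.0527 RPKM, on 1 read, and Psma3 at 0.181 RPKM, on 4 reads, were lowest. Both are alpha ring subunits that every core needs. Of short stretches of their transcripts, 61.0% for Psma5 and 78.9% for Psma3 occur also in other genes, so these levels are uncertain. The authors' deposited table sorts all genes into 12 numbered groups, and it placed 29 of the 47 proteasome genes (61.7%) in group 10, which holds 15.4% of all genes, and 13 (27.7%) in group 11, which holds 14.5%. Psme2 was the only proteasome gene in group 3, Psma3 and Psma5 were in group 7, and Psmd11 and Psme4 in group 12.

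All 5 immunoproteasome genes were more abundant in chromatin RNA at 120 min than at 0 min, by 4.11 to 7.78 times. Psmb10, the trypsin-like cutting subunit, stood at 4.54, 4.35, 4.76, 11.5 and 35.3 RPKM at 0, 15, 30, 60 and 120 min on chromatin. It was 7.78-fold higher at 120 min than at 0 min (95% counting interval 6.83 to 8.89), and the 60 min value was already 2.53-fold higher (2.18 to 2.93). Psmb8, the chymotrypsin-like cutting subunit, stood at 5.09, 3.81, 3.57, 7.60 and 25.5 RPKM, lower at 15 and 30 min than at rest and 5.02-fold higher at 120 min (4.41 to 5.73). Psmb9, the third of the replacing cutting subunits, stood at 4.72, 3.82, 2.001, 3.90 and 19.4 RPKM. Its 30 min value was 0.42-fold of the 0 min value (0.32 to 0.56), and its 120 min value was 4.11-fold higher (3.47 to 4.89). Among the caps, Psme1 stood at 5.70, 3.66, 3.81, 10.4 and 28.0 RPKM and was 4.91-fold higher at 120 min (4.28 to 5.65). Psme2 stood at 2.23, 2.45, 5.82, 12.8 and 15.8 RPKM. It was the earliest of the 5, at 2.61-fold (2.04 to 3.36) by 30 min, when the other 4 were at or below 1.05-fold, and reached 7.09-fold (5.68 to 8.94) at 120 min.

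The ratios at 120 min were smaller for the same genes in the nucleoplasm and the cytoplasm, although the counting intervals of Psme2 on chromatin and in the nucleoplasm overlapped. In nucleoplasmic RNA Psmb10 stood at 20.5, 24.4, 25.8, 23.4 and 61.3 RPKM, Psmb8 at 27.9, 28.7, 26.3, 25.1 and 47.2, and Psmb9 at 12.3, 11.2, 13.7, 12.4 and 32.2 RPKM. The step lay between 60 and 120 min in these 3 genes. Psme1 stood at 12.5, 9.51, 13.5, 11.5 and 20.7 RPKM, and Psme2 at 0.918, 1.84, 1.98, 3.05 and 3.57 RPKM, on 21 to 97 reads. The 120 min ratios were 2.98 (2.74 to 3.26) for Psmb10, 2.62 (2.27 to 3.03) for Psmb9, 3.88 (2.40 to 6.56) for Psme2, 1.69 (1.56 to 1.83) for Psmb8 and 1.65 (1.44 to 1.90) for Psme1. In cytoplasmic RNA Psmb10 stood at 26.0, 30.0, 33.1, 44.7 and 53.8 RPKM, Psmb8 at 33.5, 35.2, 32.2, 42.6 and 52.2, and Psmb9 at 18.2, 21.6, 20.7, 25.0 and 30.5 RPKM. Psme1 stood at 18.0, 22.8, 19.9, 22.3 and 33.5 RPKM, and Psme2 at 1.36, 1.33, 1.72, 3.18 and 2.98 RPKM, on 19 to 53 reads. The 120 min value was the highest of the 5 for each of these genes except Psme2, whose 60 min value was highest. The cytoplasmic 120 min ratios were 2.07 (1.87 to 2.30) for Psmb10, 2.19 (1.27 to 3.92) for Psme2, 1.86 (1.61 to 2.15) for Psme1, 1.68 (1.43 to 1.97) for Psmb9 and 1.56 (1.42 to 1.72) for Psmb8. These intervals cover counting error only, since no fraction and time has a replicate library.

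**Figure D1:**
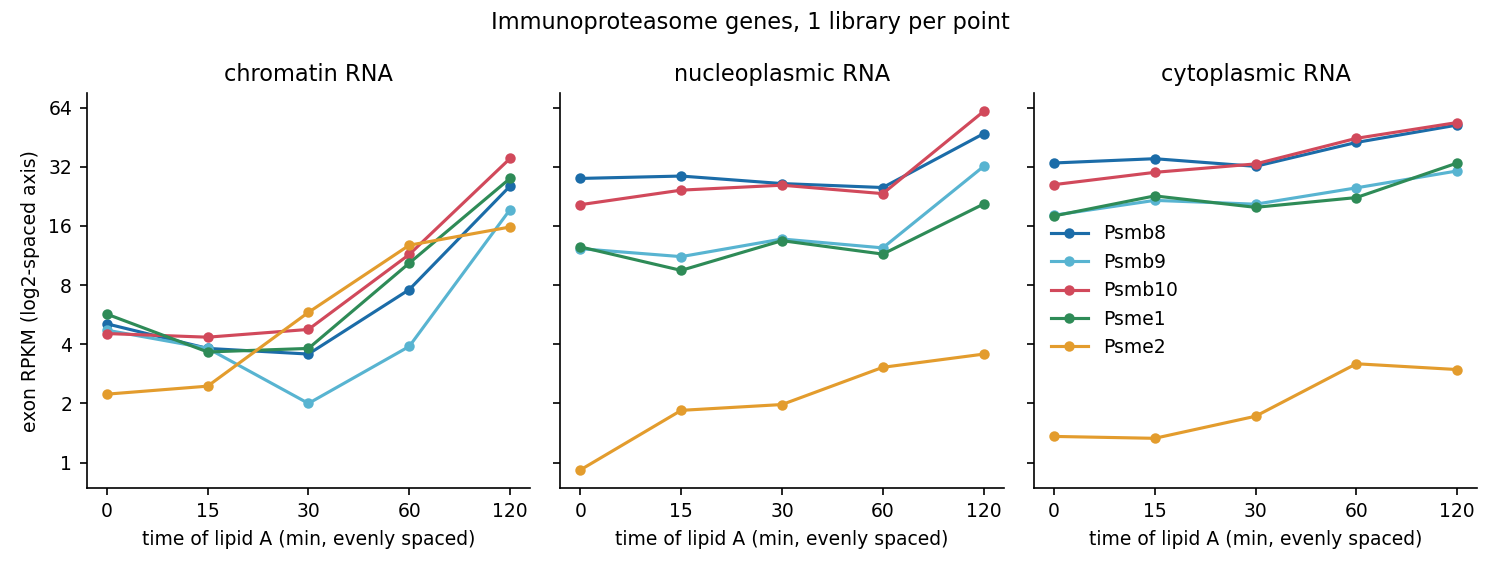
Exon RPKM on a log2-spaced axis of the 5 immunoproteasome genes at 0, 15, 30, 60 and 120 min of lipid A, with 1 panel per fraction and 1 library per point. In chromatin RNA the 5 lines reach 15.8 to 35.3 RPKM at 120 min, and Psme2 lies far below the other 4 in the nucleoplasm and the cytoplasm.

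A gene was called where log2(RPKM + 0.5) moved by 2-fold or more from 0 min at any of the 4 later times, among genes that reached 1 RPKM in the fraction. These calls rest on single libraries and are no test. In chromatin RNA 5 of 5 immunoproteasome genes and 7 of 39 other proteasome genes were called higher, against 15.9% of all 8881 genes. Called lower were 1 of 5 (Psmb9, at 30 min) and 2 of 39, against 33.5% of all genes. In nucleoplasmic RNA 3 of 5 (Psmb9, Psmb10 and Psme2) and 1 of 39 were called higher, against 10.4% of 9317 genes, and 0 of 5 and 1 of 39 lower, against 22.5%. In cytoplasmic RNA 1 of 5 (Psmb10) and 3 of 40 were called higher, against 13.3% of 9239 genes, and 0 of 5 and 2 of 40 lower, against 18.7%. At 120 min the median log2 ratio of the immunoproteasome genes was 2.22 in chromatin, 1.36 in nucleoplasmic and 0.88 in cytoplasmic RNA. That of the other proteasome genes was 0.25, 0.06 and -0.16, and that of all genes -0.34, -0.47 and -0.49. With the ratios rescaled by the median of all genes, 5 of 5 immunoproteasome genes passed 2-fold in each fraction, as did 12, 6 and 2 of the others in chromatin, nucleoplasmic and cytoplasmic RNA, against 23.1%, 15.4% and 13.9% of all genes. Lower after rescaling were 0 of 5 in each fraction and 0, 0 and 1 of the others, against 15.9%, 9.51% and 7.52% of all genes. Psmb9 at 30 min in chromatin RNA then lay at -0.66 on the log2 scale and was not called. Without the 120 min libraries, 2, 1 and 0 of the 5 immunoproteasome genes were called higher in the 3 fractions, and 2 of the others in chromatin RNA.

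Intron reads, the difference between the deposited whole-gene and exon values, could be had for the 3 immunoproteasome genes in the class table, and they give a readout of unspliced RNA that the exon table does not. Psmb8 introns held 188, 91, 27, 306 and 811 reads in chromatin RNA at 0, 15, 30, 60 and 120 min. Scaled to library depth that was 0.16-fold of the 0 min value at 30 min (0.10 to 0.24) and 5.12-fold at 120 min (4.36 to 6.03). The exon ratio at 30 min was 0.70 (0.58 to 0.85), which does not overlap the intron interval. The nucleoplasmic libraries held fewer Psmb8 intron reads, with 44, 36, 9, 30 and 129, and the 30 min library was again the lowest, at 0.21-fold (0.09 to 0.44). Psmb10 introns held 94, 76, 79, 321 and 746 reads in chromatin RNA, 3.83-fold of the 0 min value at 60 min (3.03 to 4.87) and 9.41-fold at 120 min (7.59 to 11.8). Psme2 introns held 196, 223, 427, 887 and 1069 reads, 2.38-fold at 30 min (2.002 to 2.83) and 6.47-fold at 120 min (5.55 to 7.57). In chromatin RNA Psme2 was the only one of the 3 above its 0 min intron value at 30 min. In cytoplasmic RNA the introns of each of the 3 genes held at most 17 reads in a library.

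**Figure D2:**
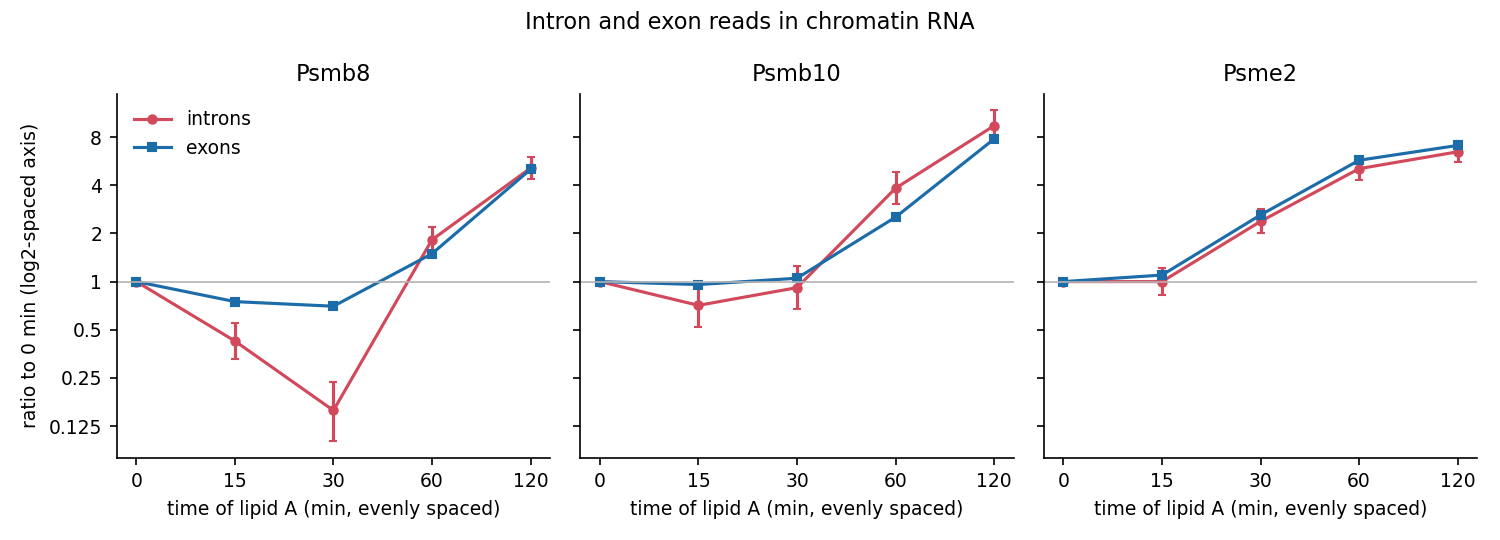
Ratio to 0 min, on a log2-spaced axis, of intron reads (red circles, with 95% counting intervals) and exon RPKM (blue squares) in chromatin RNA for Psmb8, Psmb10 and Psme2. Psmb8 introns fall to 0.16-fold at 30 min before they reach 5.12-fold at 120 min, while Psme2 introns and exons are above 2-fold by 30 min.

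The balance between replacing and constitutive cutting subunits could be read from 2 of the 3 pairs. Psmb7 RNA, the constitutive trypsin-like subunit, lay at 6.85, 4.54, 4.99, 5.56 and 6.44 RPKM in chromatin, at 18.7, 19.6, 16.3, 21.9 and 20.3 RPKM in the nucleoplasm and at 19.01, 16.8, 22.4, 37.0 and 17.5 RPKM in the cytoplasm. The 60 min cytoplasmic library stands above the rest, and Psmb7 was called in no fraction. The level of Psmb10 over that of Psmb7 in chromatin RNA was 0.663 at 0 min (0.560 to 0.784) and 5.48 at 120 min (4.79 to 6.29). In the nucleoplasm it was 1.10 at 0 min (0.976 to 1.24) and 3.02 at 120 min (2.76 to 3.31), and in the cytoplasm 1.37 (1.18 to 1.58) and 3.07 (2.72 to 3.47). At 15, 30 and 60 min the ratio was 1.24, 1.58 and 1.07 in the nucleoplasm and 1.79, 1.48 and 1.21 in the cytoplasm. Psmb6, the constitutive caspase-like subunit replaced by Psmb9, stood at 5.71, 7.43, 14.9, 10.5 and 8.59 RPKM in chromatin, at 10.7, 11.7, 13.7, 19.8 and 16.7 RPKM in the nucleoplasm and at 23.4, 22.8, 18.3, 42.2 and 25.3 RPKM in the cytoplasm. Its chromatin RNA was highest at 30 min, when Psmb9 was lowest, so that Psmb9 over Psmb6 was 0.827 at 0 min (0.680 to 1.00), 0.134 at 30 min (0.103 to 0.173) and 2.26 at 120 min (1.97 to 2.58). In the nucleoplasm the same ratio was 1.14 (0.962 to 1.36) at 0 min, 0.955 (0.816 to 1.12) at 15 min, 1.00 (0.852 to 1.18) at 30 min, 0.626 (0.535 to 0.731) at 60 min and 1.92 (1.72 to 2.15) at 120 min. In the cytoplasm it was 0.775 (0.655 to 0.916), 0.948 (0.812 to 1.11), 1.13 (0.959 to 1.32), 0.593 (0.522 to 0.671) and 1.20 (1.06 to 1.36) at the same times, so that the 60 min library was lowest and the 30 and 120 min intervals overlapped. Psmb5 stood at 0.399, 0.110, 0.163, 0.364 and 0.503 RPKM in chromatin, at 1.76, 1.57, 1.48, 1.78 and 2.08 RPKM in the nucleoplasm and at 2.87, 2.46, 2.23, 3.15 and 1.79 RPKM in the cytoplasm. No ratio of Psmb8 to Psmb5 is given, because 70.3% of the 36-base stretches of the Psmb5 transcript occur also in transcripts of other genes.

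Among the other subunits of the core, 4 of 7 alpha ring genes were called higher in chromatin RNA at 120 min. Of all genes, 12.6% were called higher at that time. The median log2 ratio of the 7 was 1.19. Of the 4, Psma3, Psma4 and Psma5 share 78.9%, 34.7% and 61.0% of their transcript stretches with other genes. Only Psma6 among the 4 shares none. Of those not called, Psma2 shares 12.6%, and Psma1 and Psma7 share none. The part of shared reads in these calls was not tested. Psma6 stood at 4.28, 3.58, 4.62, 12.2 and 15.8 RPKM in chromatin RNA, 3.70-fold higher at 120 min (3.14 to 4.37). In nucleoplasmic RNA it stood at 15.5, 22.1, 23.2, 30.1 and 47.9 RPKM, 3.08-fold higher at 120 min (2.76 to 3.46), and in cytoplasmic RNA at 21.95, 22.8, 20.8, 35.2 and 34.5 RPKM. In the values as deposited, Psma6 was the only proteasome gene outside the immunoproteasome called higher in the nucleoplasm; after rescaling by the median of all genes Psma2, Psmb4, Psmb6, Psmd10 and Psmd14 passed 2-fold there too. Psma4 stood at 1.29, 1.01, 1.36, 1.71 and 3.77 RPKM in chromatin RNA (2.92-fold at 120 min, 2.17 to 3.96), Psma3 at 1.78, 1.45, 1.45, 2.40 and 4.69 RPKM (2.64-fold, 2.11 to 3.31) and Psma5 at 0.554, 0.440, 0.195, 0.821 and 2.92 RPKM (5.28-fold, 3.56 to 8.07). Psma5 reached the filter of 1 RPKM in chromatin RNA only at 120 min, so that library alone brought it into the count. The remaining alpha subunits Psma1, Psma2 and Psma7 were called in no fraction in the values as deposited. Psmb4, a beta subunit without a cutting site, stood at 4.54, 5.76, 8.30, 7.12 and 13.0 RPKM in chromatin RNA, 2.87-fold higher at 120 min (2.43 to 3.41). Psmb6 was called higher at 30 min only, at 2.61-fold (2.26 to 3.02).

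None of the 17 genes for the 19S cap, 6 ATPases of the base, 3 other base subunits and 8 lid subunits, was called in any fraction in the values as deposited, whereas Psmc5, Psmd6 and Psmd14 passed 2-fold higher in chromatin RNA, and Psmd14 in nucleoplasmic RNA, after rescaling by the median of all genes. Their log2 ratios at 120 min in chromatin RNA ran from -0.37 to 0.86. The activators Psme3 and Psme4, which cap nuclear proteasomes, were also called in none. Outside the immunoproteasome, the genes called lower were assembly chaperones and the regulator PI31. Psmd10, a chaperone of base assembly also known as gankyrin, stood at 0.881, 0.827, 1.61, 1.36 and 2.94 RPKM in chromatin RNA, 3.34-fold higher at 120 min (2.46 to 4.57). In cytoplasmic RNA it stood at 5.07, 4.67, 8.02, 12.5 and 9.82 RPKM, 2.46-fold higher at 60 min (1.99 to 3.07). Psmd5, another base chaperone, stood at 2.71, 1.38, 0.929, 2.08 and 2.03 RPKM in chromatin RNA, 0.34-fold at 30 min (0.26 to 0.44). Psmf1, which encodes PI31, stood at 1.54, 1.11, 0.382, 0.984 and 2.48 RPKM, 0.25-fold at 30 min (0.18 to 0.33). On the log2(RPKM + 0.5) scale used for calls, Psmf1 stood at -1.21 at 30 min. With ratios rescaled by the median of all genes, neither Psmd5 (-0.77 on the log2 scale) nor Psmf1 (-0.81) was called, nor were Psmg4 in the cytoplasm (-0.87 at 120 min) and Psmg3 in the nucleoplasm (-0.97 at 60 min and -0.76 at 120 min). Psmg3 in the cytoplasm still passed, at -1.33 at 30 min. Of the chaperones that assemble the core, Psmg3 stood at 4.36, 2.91, 1.64, 3.54 and 1.68 RPKM in cytoplasmic RNA and at 2.99, 2.35, 1.82, 1.07 and 0.983 RPKM in nucleoplasmic RNA, where it was 0.33-fold at 120 min (0.20 to 0.53). Psmg4 stood at 5.24, 5.77, 5.17, 6.97 and 1.73 RPKM in cytoplasmic RNA, 0.33-fold at 120 min (0.17 to 0.61) on 16 reads. Psmg1 stood at 4.24, 4.84, 5.87, 9.31 and 2.91 RPKM there and was 2.20-fold higher at 60 min (1.64 to 2.98). Psmc3ip was higher at 60 min in cytoplasmic RNA on 6 and 29 reads.

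**Figure D3:**
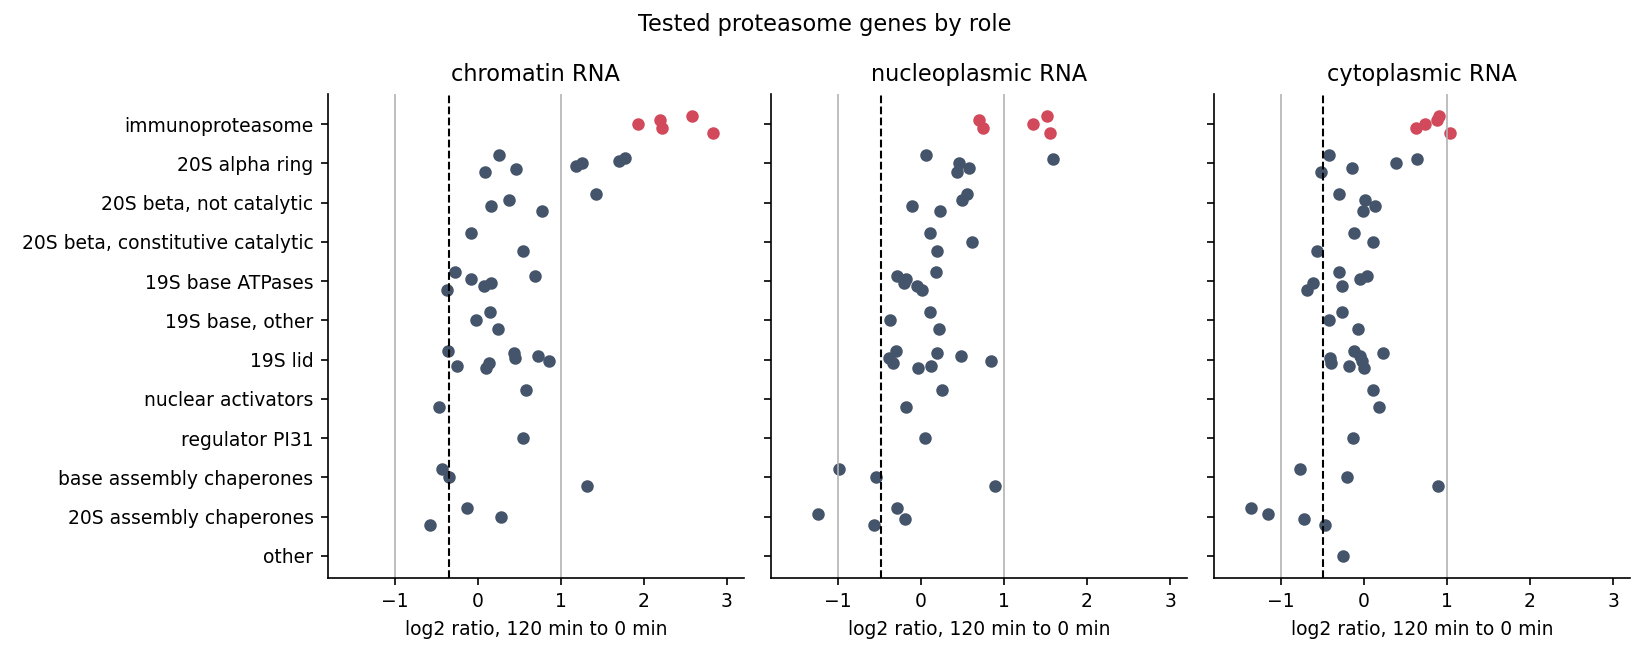
Log2 ratio of RPKM + 0.5 at 120 min to 0 min for each tested proteasome gene, by role and fraction, with the median of all genes as a dashed line and 2-fold as grey lines. The 5 immunoproteasome genes (red) lie at 1.93 to 2.83 in chromatin RNA. There 4 of the 7 alpha ring genes lie right of the 2-fold line. Of these 4, Psma3, Psma4 and Psma5 share sequence with other genes.

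In cytoplasmic RNA the 60 min library was higher than the 0 min library for 38 of 40 other proteasome genes with a median log2 ratio of 0.53. Of all 9239 genes 83.3% were higher there, with a median of 0.39. At 120 min 11 of the 40 (27.5%) were above their 0 min value, against 23.5% of all genes. In chromatin RNA at 120 min 27 of 39 (69.2%) were above 0 min, against 34.7% of all 8881 genes. In nucleoplasmic RNA the same count was 22 of 39 (56.4%), against 26.4% of 9317. The 60 min calls of Psmd10, Psmg1 and Psmc3ip in the cytoplasm ended when the ratios were rescaled by the median of all genes, at 0.83, 0.66 and 0.89 on the log2 scale, while Psmd10 (1.38) and Psma6 (1.13) then passed at 120 min.

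Levels of some members are uncertain because their transcripts share sequence with pseudogenes or paralogs, and how reads that fit several places were counted is not given in the sources used here. In transcripts of GENCODE vM21, 13 of the 47 genes shared 10% or more of their 36-base stretches with another gene. For each gene the protein-coding transcript nearest in length to the counted exons was searched. For some genes it was much shorter, with 840 against 1223 bases for Psmb8, 529 against 806 for Psmb9 and 555 against 2042 for Psmd5. Their shares therefore leave part of the counted sequence unexamined. The largest shares were 78.9% for Psma3, 70.3% for Psmb5, 64.4% for Psme2, 64.3% for Psmb3 and 61.0% for Psma5. These 13 genes had a median of 4.36 RPKM (0.0527 to 23.4) in the 0 min cytoplasmic library, and the other 34 a median of 19.2 RPKM (0.418 to 71.8). Psma4 shared 34.7%, Psmg3 23.9%, Psme1 21.4% and Psmb6 10.2%, while Psmb10 and Psma6 shared none. Neighbouring protein-coding genes in RefSeq were looked up only for the immunoproteasome genes and the called members. Among these, the loci of Psme1, Psma4, Psmd10, Psmf1 and Psmc3ip overlap a neighbour, and whether strand was used in counting is not given.

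**Figure D4:**
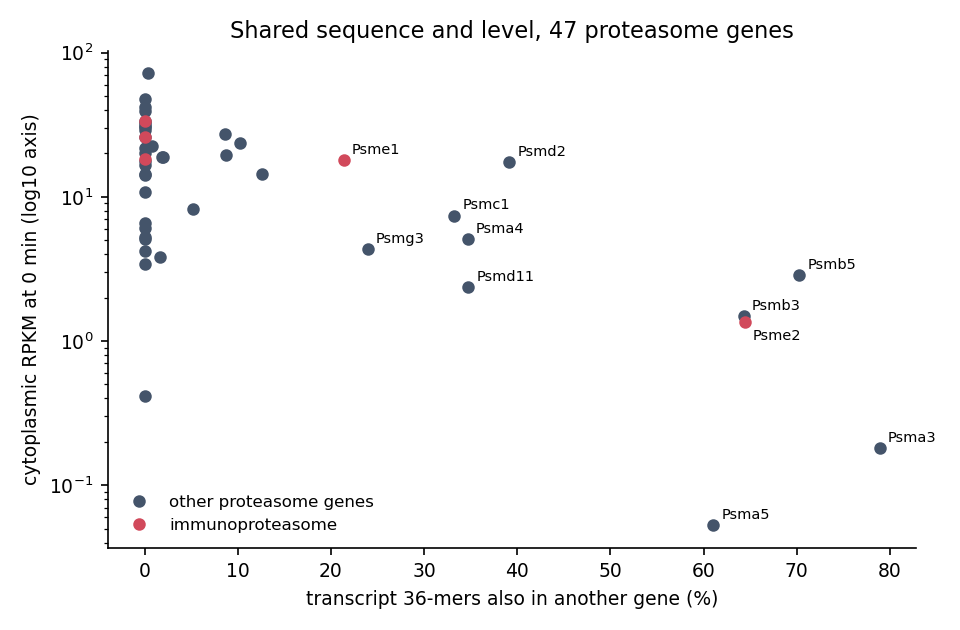
Cytoplasmic RPKM at 0 min (log10 axis) of the 47 proteasome genes against the percentage of their transcript's 36-base stretches found also in another gene, with names for those at 20% or more. Psma3, Psma5, Psmb3, Psmb5 and Psme2, at 61.0% to 78.9%, all lie at 2.87 RPKM or below.

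Cytoplasmic RNA was higher than chromatin RNA at an adjusted p under 0.05 and 2-fold (limma on log2(RPKM + 0.5), Benjamini-Hochberg over 9441 genes, with the 5 times as the values of a fraction) for 40 of 45 tested proteasome genes, against 40.7% of all genes, and lower for 2 of 45, against 5.14%. With the median of all genes subtracted in each library, 3 of 5 immunoproteasome genes and 21 of 40 others were higher, against 15.1% of all genes, and 1 and 1 lower, against 18.0%. The immunoproteasome genes gave 4 higher and 1 lower, and the others 36 higher and 1 lower of 40. The largest differences belonged to the core subunits Psma7, at 34.6 ± 7.65 RPKM in the cytoplasm and 5.59 ± 1.54 on chromatin (SD over 5 times; log2 difference 2.53, SE 0.20, limma adjusted p = 7.85e-11), Psmb2 (2.52, SE 0.20) and Psmb4 (2.49, SE 0.21), each higher in the cytoplasm at 5 of 5 times. Psme2 was lower in the cytoplasm, at 2.11 ± 0.90 against 7.82 ± 6.18 RPKM (log2 difference -1.37, SE 0.23, limma adjusted p = 8.16e-06), and so was Psma3, at 0.293 ± 0.091 against 2.35 ± 1.36 RPKM (-1.75, SE 0.20, limma adjusted p = 2.22e-08). Both were lower at 5 of 5 times, and both are among the genes with the largest shared sequence. Psme4 (0.60, SE 0.21), Psmb3 (0.72, SE 0.17) and Psmd11 (0.73, SE 0.17) did not reach 2-fold.

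Nucleoplasmic RNA was higher than chromatin RNA for 35 of 45 proteasome genes, against 44.1% of all genes, and lower for 2 of 45 (Psme2 and Psma3), against 2.28%. With library medians subtracted 1 of 5 immunoproteasome genes and 9 of 40 others were higher, against 13.1% of all genes, and 1 and 1 lower, against 10.8%. The highest differences were those of Psmc3 (2.21, SE 0.19), Psma1 (2.15, SE 0.19) and Psmb8 (2.07, SE 0.24), and the lowest those of Psme2 (-1.31, SE 0.23), Psma3 (-1.27, SE 0.20) and Psmd11 (0.43, SE 0.17). Between cytoplasm and nucleoplasm 1 of 45 passed, against 4.66% of all genes higher in the cytoplasm, and 0 of 45 were lower, against 16.6%. With library medians subtracted 2 of 45 were higher, against 6.07%, and 0 lower, against 16.0%. The gene that passed in the values as deposited was Psme3, the nuclear activator, at 20.7 ± 3.45 RPKM in the cytoplasm and 9.88 ± 1.07 in the nucleoplasm (log2 difference 1.02, SE 0.18, limma adjusted p = 3.71e-05). Without the 30 or the 60 min libraries no other proteasome gene passed here and Psme3 fell short. Next were Psmg4 (0.96, SE 0.25) and Psmd9 (0.93, SE 0.19), and the lowest were Psma3 (-0.48, SE 0.20), Psmd1 (-0.44, SE 0.17) and Psme4 (-0.27, SE 0.21). Psmd1, a scaffold of the base, was lower in the cytoplasm at 5 of 5 times.

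The difference between cytoplasm and chromatin moved with time in the immunoproteasome genes. On the log2(RPKM + 0.5) scale Psmb8 stood at 2.60 at 0 min, 3.01 at 30 min and 1.02 at 120 min, Psmb9 at 1.84, 3.08 and 0.64, and Psmb10 at 2.39, 2.68 and 0.60. Psme1 stood at 1.58, 2.24 and 0.25, and Psme2 at -0.55, -1.51 and -2.23. The median of the other proteasome genes was 1.68, 2.05 and 1.26, and that of all tested genes 0.49, 1.02 and 0.41. The 30 min differences of Psmb8 and Psmb9 coincide with their lowest chromatin levels. With 1 library per time these steps have no test.

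**Figure D5:**
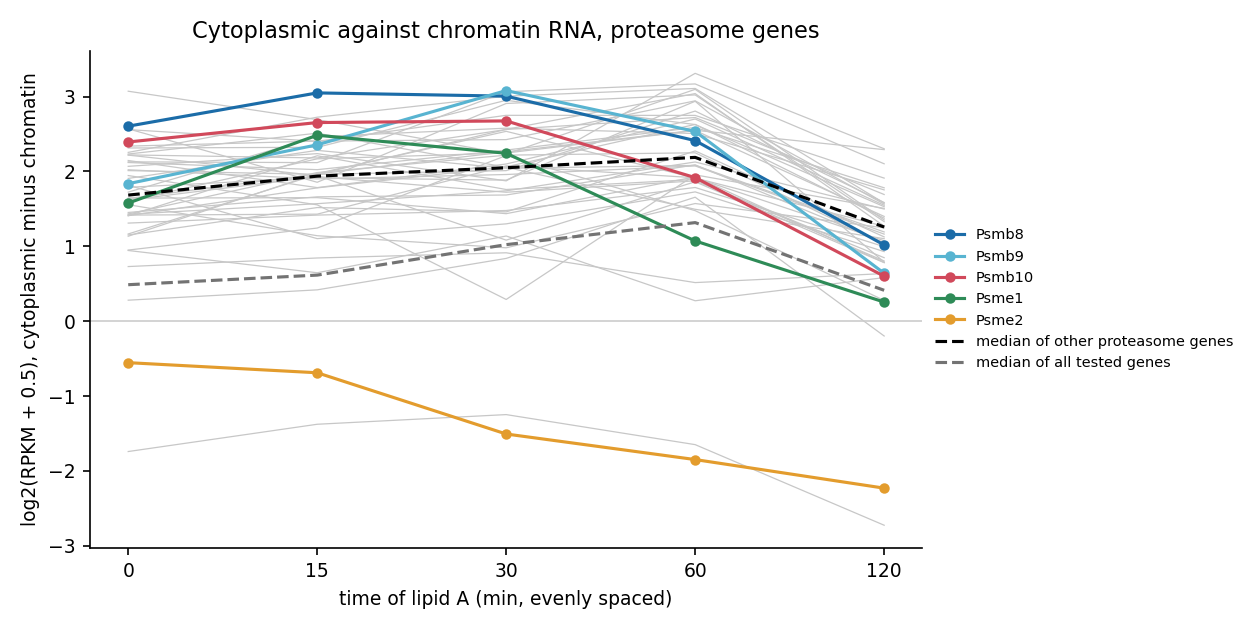
Cytoplasmic minus chromatin log2(RPKM + 0.5) at each time for the 5 immunoproteasome genes (coloured), the other proteasome genes (thin grey lines), their median and the median of all tested genes (dashed). Psmb8, Psmb9, Psmb10 and Psme1 lie at 2.24 to 3.08 at 30 min and at 0.25 to 1.02 at 120 min, and Psme2 stays below 0.

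Genes of the same pathway outside the family were counted in lists by role. For comparison, the calls over all genes came to 15.9% higher and 33.5% lower on chromatin, to 10.4% and 22.5% in the nucleoplasm and to 13.3% and 18.7% in the cytoplasm. Rescaled by the median of all genes, these shares were 23.1% and 15.9%, 15.4% and 9.51%, and 13.9% and 7.52%. Of 13 tested genes for peptide loading and MHC class I, 8 were called higher in chromatin RNA (Tap1, Tap2, Tapbp, Tapbpl, H2-K1, H2-D1, H2-T23 and Nlrc5) and 1 lower (B2m), and at 120 min their median log2 ratio was 1.45. In the nucleoplasm 4 and in the cytoplasm 3 of the 13 were called higher, Tap1 and Nlrc5 in both. After rescaling, 8, 7 and 4 of the 13 were higher in chromatin, nucleoplasmic and cytoplasmic RNA, and 0 were lower in each. Tap1, a subunit of the pump that carries peptides into the endoplasmic reticulum, had log2 ratios at 120 min of 2.88, 1.97 and 1.36 in chromatin, nucleoplasmic and cytoplasmic RNA, and Nlrc5, the transactivator of MHC class I genes, of 2.94, 1.99 and 1.73. In RefSeq Psmb8 lies between Tap1 and Tap2, and Psmb9 lies next to Tap1. Other immunoproteasome genes had neighbours that were higher in chromatin RNA at 120 min too. Rnf31 beside Psme2 stood at 2.59 on the log2 scale, and Ctrl and Lcat beside Psmb10 at 1.57 and 1.03. On the other sides, H2-DMb1 beside Psmb9 stood at 0.06 and Emc9, between Psme1 and Psme2, at -0.89. At 30 min in chromatin RNA, Tap1 (-0.18), Tap2 (0.08) and Psmb8 (-0.46) were not called lower. Psmb9 (-1.06) was, in the values as deposited only. Of 12 genes of the interferon signal, 8 were called higher in chromatin RNA (among them Ifngr1, Jak2, Tyk2, Stat2, Irf1, Irf8 and Irf9) and none lower, with Irf1 already called at 15 min and Jak2 at 60 min. In the nucleoplasm 5 were called higher and in the cytoplasm 6, Irf2 only there, and Stat2 was called lower at 60 min and higher at 120 min in both. After rescaling, 10, 8 and 7 of the 12 were higher in chromatin, nucleoplasmic and cytoplasmic RNA, and 0, 1 and 1 lower.

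The remaining lists moved less or in both directions. Of 16 tested genes whose products work with the proteasome, such as the maturation factor Pomp and the ubiquitin remover Usp14, none was called higher in chromatin RNA and 2 were called lower (Ube3c and Akirin2, at 60 min and at 30 and 120 min), against 33.5% of all genes. Rescaled by the median of all genes, 3 were higher and 0 lower. In the nucleoplasm 1 (Txnl1) and in the cytoplasm 3 (Uchl5, Usp14 and Txnl1, all at 60 min) were called higher. After rescaling, 1 was higher in the nucleoplasm and 1 in the cytoplasm. Of 7 regulators of proteasome genes, Maff, Mafk and Nfe2l2 were called higher in each fraction, Nfe2l2 at a single time in each. Ddi2, the protease that activates NRF1, was called lower in each fraction, with log2 ratios at 120 min of -2.63, -2.93 and -2.52 in chromatin, nucleoplasmic and cytoplasmic RNA. Mafg was called lower in each fraction too, Ngly1 in chromatin RNA, and Nfe2l1, which encodes NRF1, in none. After rescaling, 1, 2 and 1 of the 7 regulators were lower in chromatin, nucleoplasmic and cytoplasmic RNA, and 3 were higher in each. Of the ubiquitin genes and their activating enzymes, Uba7, which activates the interferon-induced modifier ISG15, was called higher in chromatin RNA at 120 min (2.37 on the log2 scale). Uba6 was called higher in the cytoplasm at 60 min, and Ubb higher in the nucleoplasm at 15 min and lower in the cytoplasm at 120 min. Of this list 6, 6 and 5 genes were tested in chromatin, nucleoplasmic and cytoplasmic RNA. In the values as deposited 1, 1 and 1 were called higher and 1, 0 and 1 lower. After rescaling, 2, 3 and 1 were higher, against 23.1%, 15.4% and 13.9% of all genes. Lower were then 1, 0 and 0, against 15.9%, 9.51% and 7.52%.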

How the data were processed

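Per the labels, ribosomal RNA-depleted, strand-specific libraries were made of 3 cell fractions at 5 times. Per the submitters' processing notes, TopHat and the mouse build mm9 were used; neither says how reads with several positions were treated. The deposited values are RPKM per gene over exons, and for 560 classified genes also over whole genes. Whole reads were recovered from the steps of these RPKM values for all 47 members, to within 0.02 reads or, at high counts, a limit that widened with the count. The shortest length that fitted was taken for each gene, and 2 of the 47 lengths equal that of a GENCODE transcript of the gene. Columns of the deposited tables that match no sample (3) were not used. Log2 ratios to 0 min and calls used RPKM + 0.5 and a filter of 1 RPKM. Fold values are ratios of RPKM with nothing added, and their exact conditional binomial 95% intervals cover counting error only. Fractions were compared with limma 3.58.1 (R 4.3.3) on log2(RPKM + 0.5) with time as a term, all 15 libraries and genes at 1 RPKM in at least 3 libraries; nothing says that the libraries came from separate cultures, so its p-values measure only the spread between times. The scripts were tested on simulated data. Promoters came from RefSeq (GRCm38.p6) and shared 36-base stretches from GENCODE transcripts. Genes were named by rule: the immunoproteasome genes, their counterparts, called members, the 3 highest and 3 lowest in each fraction difference and called pathway genes; any other named gene was chosen after its values were seen. The members and lists were chosen with earlier results of these data known. Some called pathway genes are not reported here by name.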

Additional observations from a re-analysis of the deposited data

Results flagged for a closer look

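3 of the other proteasome genes moved in opposite directions in 2 fractions, at all 4 stimulated times against 0 min. Each difference was not tested and rests on single libraries. The share of all genes that moved so was not counted, so this number says nothing particular to proteasome genes. Psmc5, an ATPase of the 19S base, was above its 0 min level in chromatin RNA (log2 ratio 0.69 at 120 min) and in cytoplasmic RNA (0.042 at 120 min) and below it in nucleoplasmic RNA (-0.29). Its nucleoplasmic levels were 30.7, 24.6, 23.6, 24.0 and 25.0 RPKM and its chromatin levels 4.72, 5.49, 4.83, 7.25 and 7.92 RPKM. Psmc6, another base ATPase, was above its 0 min level in nucleoplasmic RNA (0.18 at 120 min) and below it in chromatin RNA (-0.27). Psmd12, a lid subunit, was above in nucleoplasmic RNA (0.12 at 120 min) and below in chromatin RNA (-0.25). None of these values reached 2-fold. At 120 min the opposite direction ended when the ratios were rescaled by the median of all genes, since the values then stood at 0.07 for Psmc6 and 0.09 for Psmd12 in chromatin RNA and at 0.18 for Psmc5 in nucleoplasmic RNA.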

How the results depend on the processing

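Counts of called genes rest on small numbers, and of 84 alternative counts over time 30 moved by more than 1.5 times. At 4-fold the immunoproteasome gave 0 lower in chromatin RNA and 0 higher in the nucleoplasm and the cytoplasm, and the other genes gave 0 higher and 0 lower in every fraction. With a pseudocount of 0.1 RPKM, 5 others were lower in chromatin and 2 in nucleoplasmic RNA, and 2 immunoproteasome genes were higher in the cytoplasm; with 1 RPKM, 0 immunoproteasome genes and 0 others were lower in chromatin RNA and 1 other was higher in the cytoplasm. Rescaled by the median of all genes, the higher immunoproteasome genes numbered 5 in the nucleoplasm and 5 in the cytoplasm, with 0 lower in chromatin RNA; the others gave 12 higher and 0 lower in chromatin, 6 higher and 0 lower in nucleoplasmic RNA and 1 lower in cytoplasmic RNA. Without the 120 min libraries the higher immunoproteasome genes were 2, 1 and 0 in chromatin, nucleoplasm and cytoplasm, and the others 2 and 0 higher in chromatin and nucleoplasm and 1 lower in cytoplasm; without the 60 min library 0 others were higher in cytoplasm. Of 120 alternative counts between fractions 11 moved. With library medians subtracted, 21 others were higher in cytoplasmic and 9 in nucleoplasmic than in chromatin RNA, against 36 and 32, 1 immunoproteasome gene was higher in nucleoplasmic than in chromatin RNA, and 2 others were higher in cytoplasmic than in nucleoplasmic RNA. For the last comparison a pseudocount of 0.1 RPKM gave 3, one of 1 RPKM gave 0, and leaving out each time in turn gave 0 to 2; a pseudocount of 1 RPKM gave 0 others lower in nucleoplasmic than in chromatin RNA. The cause was not tested. Without the time term, which pairs the 3 fractions of a time, no count of calls between fractions changed. Low-read members, such as Psme2 in the cytoplasm, carry wide counting intervals.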
